A study of Mus musculus with 6 samples.

Results

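The genes described here are 9 transcription factors of the lateral plate mesoderm and the allantois, namely Hand1, Hand2, Foxf1, Tbx2, Tbx4, Isl1, Pitx1, Gata4 and Gata6. They were chosen by name for these roles, and not for their levels, although earlier results of these data were known. All 9 were found among the 35506 genes of the table that matched an annotated gene. All 9 also passed the filter on low reads, which 13617 autosomal genes passed. RNA was sequenced from the tailbud of FVB/NJ mouse embryos with 8 somites, which holds the presomitic mesoderm. There were 3 Smchd1 +/+ embryos (WT) and 3 Smchd1 MommeD43/MommeD43 embryos (MommeD43), and each library was 1 embryo. SMCHD1 is a chromatin protein that silences the inactive X chromosome and clustered genes, and MommeD43 is a missense allele from a chemical mutagenesis screen. It is carried by every cell of the homozygous embryo, so that an effect in the tailbud cannot be told apart from an effect elsewhere in the embryo. Each genotype had 1 male (replicate 1) and 2 females (replicates 2 and 3). By the labels both males had the same mother and the 4 females had 4 other mothers, so that sex, mother and the dissection of a single embryo cannot be told apart.

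The lateral plate mesoderm lies to the side of the somite-forming mesoderm and gives rise to the body wall, the limb buds, the heart and the smooth muscle of the gut. At the posterior end of the embryo it is continuous with the allantois, the mesodermal bud that forms the umbilical vessels. Both tissues depend on BMP signals, and the visceral layer of the lateral plate also receives Hedgehog signals from the gut. The 9 genes mark parts of this tissue next to the presomitic mesoderm, but none of them belongs to a single tissue. GATA factors are also made by visceral endoderm, and Hand1 by trophoblast.

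The libraries held between 10957916 and 47298348 reads, a 4.32-fold range of depth. Levels are in RPKM, reads scaled by the exon length of the gene and the size of the library, which allows levels of different genes to be compared per length. The markers of the labelled tissue were abundant, with T, the regulator of posterior mesoderm, at 117 to 188 RPKM and Tbx6, a determinant of presomitic mesoderm, at 32.2 to 48.6 RPKM. The labels' source field names a neural stem cell, which the tissue field and the titles do not, and tailbud was followed.

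Each of the 9 genes was present in every library, between 96 reads of Tbx2 and 6367 reads of Hand1. Hand1, a bHLH factor of the lateral plate, allantois and extraembryonic mesoderm, had the highest level. It stood at 55.4, 59.1 and 49.6 RPKM in WT replicates 1, 2 and 3, and at 46.8, 67.4 and 63.4 RPKM in MommeD43 replicates 1, 2 and 3. The MommeD43 libraries were both the lowest and the highest, so the groups overlapped. Foxf1, the forkhead factor of the splanchnic layer and the allantois, came next with 32.7, 44.0 and 42.1 RPKM in WT and 35.6, 41.7 and 46.4 RPKM in MommeD43. Replicate 1 was the lowest of its group in both genotypes, and the groups overlapped.

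Tbx4, Hand2 and Pitx1 held a middle level. Tbx4, the T-box factor of the hindlimb field and the allantois, was at 23.0, 13.3 and 13.4 RPKM in WT replicates 1, 2 and 3. In MommeD43 replicates 1, 2 and 3 the level of Tbx4 was 22.0, 9.28 and 16.2 RPKM. Both males were above every female, and the genotypes overlapped. Hand2, a bHLH factor of the limb bud and the heart, was at 7.49, 17.4 and 15.7 RPKM in WT and at 11.6, 14.8 and 16.1 RPKM in MommeD43. Here both males were below every female, and again the genotypes overlapped. Pitx1, the homeodomain factor of the hindlimb field, was the most even of the 9, with 12.6, 13.1 and 11.8 RPKM in WT and 13.7, 12.2 and 13.0 RPKM in MommeD43.

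The remaining 4 genes were lower. Gata4, a zinc finger factor of the heart field, the lateral plate and the endoderm, was at 3.94, 3.77 and 4.10 RPKM in WT and at 4.82, 2.21 and 3.13 RPKM in MommeD43. The WT libraries lay close together, and the MommeD43 libraries lay on either side of them. Isl1, a LIM homeodomain factor of hindlimb and cardiac progenitors, was at 3.48, 3.91 and 3.36 RPKM in WT and at 3.96, 3.34 and 3.63 RPKM in MommeD43. Gata6, the relative of Gata4, was at 1.92, 2.47 and 2.76 RPKM in WT and at 2.27, 2.61 and 1.88 RPKM in MommeD43. Tbx2, a T-box repressor of the lateral plate and the allantois, had 2.39, 1.89 and 1.92 RPKM in WT and 2.42, 1.51 and 2.61 RPKM in MommeD43. For all 3 of these genes the groups overlapped. The lowest read count of the 9 genes was 96 reads of Tbx2 in MommeD43 replicate 1. It gave an exact binomial 95% interval of 1.96 to 2.95 RPKM, which covers counting error only.

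**Figure D1:**
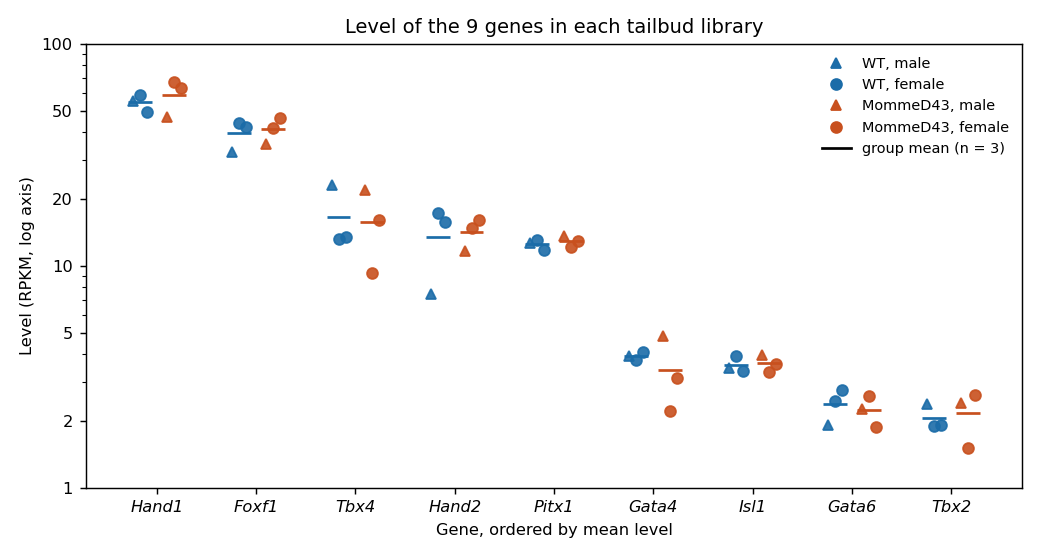
Level of each gene in RPKM (log axis) in the 3 WT and the 3 MommeD43 libraries, with males as triangles, females as circles and the mean of each group (n = 3) as a bar. Hand1 and Foxf1 stand above the other genes in every library, the males are the highest points of Tbx4 and the lowest of Hand2 and Foxf1, and the genotypes overlap for all 9 genes.

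By mean level over the 6 libraries the order was Hand1 (56.9 RPKM), Foxf1 (40.4 RPKM), Tbx4 (16.2 RPKM), Hand2 (13.9 RPKM), Pitx1 (12.7 RPKM), Gata4 (3.66 RPKM), Isl1 (3.61 RPKM), Gata6 (2.32 RPKM) and Tbx2 (2.12 RPKM). The ranges of Hand1 and Foxf1 did not overlap, nor did those of Foxf1 and Tbx4, of Pitx1 and Gata4, or of Isl1 and Gata6, and these orders held in 6 of 6 libraries. Tbx4, Hand2 and Pitx1 could not be ordered, since Tbx4 was above Hand2 in 3 of 6 libraries and Hand2 above Pitx1 in 4 of 6. Gata4 and Isl1, and likewise Gata6 and Tbx2, kept their order in 3 of 6 libraries.

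The 9 genes lie on 5 chromosomes (GRCm38). Tbx2 (ENSMUSG00000000093, chromosome 11, 85832551 to 85841948, plus strand) and Tbx4 (ENSMUSG00000000094, chromosome 11, 85886422 to 85916097, plus strand) are neighbours, with 44474 bases between the end of Tbx2 and the start of Tbx4. Hand1 (ENSMUSG00000037335) is on the minus strand of the same chromosome, from 57828705 to 57832818. Foxf1 (ENSMUSG00000042812, 121084386 to 121088144) and Hand2 (ENSMUSG00000038193, 57320983 to 57324633) are on the plus strand of chromosome 8. Isl1 (ENSMUSG00000042258, 116298281 to 116309689) and Pitx1 (ENSMUSG00000021506, 55825051 to 55836192) are on the minus strand of chromosome 13. Gata4 (ENSMUSG00000021944) is on the minus strand of chromosome 14, from 63198922 to 63271692, and Gata6 (ENSMUSG00000005836) on the plus strand of chromosome 18, from 11052064 to 11085635. All are protein-coding, and the values cover the merged exons of each gene.

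The main question of the design was whether MommeD43 embryos differ from WT embryos. None of the 9 genes passed an adjusted p of 0.05 (limma, Benjamini-Hochberg over all autosomal genes tested), where 0.00% of the 13617 genes did. Without adjustment, 0 of the 9 genes had a p under 0.05, against 2.40% of all genes tested, and 0 of the 9 had groups that did not overlap, against 7.08%. With females alone the unadjusted count was 2 of the 9, Gata4 and Hand1, and 1188 of the 13617 genes tested. Without MommeD43 replicate 1 it was the same 2 genes, and 500 of all genes tested. With voom on recovered reads it was 1 of the 9, Gata4, and 425 of all genes tested. In MommeD43 6 genes had the higher mean of log2 RPKM and 3 the lower, with a median log2 fold change of 0.04, and the median over all genes tested was 0.00. In a bulk library, fewer cells of a type and less RNA per cell cannot be told apart, and this holds for every value here.

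The width of the interval around the fold change differed between the genes. Pitx1 had the narrowest interval, with a log2 fold change of 0.05 ± 0.07 (SE, n = 3 each) and a 95% interval of -0.12 to 0.21, so that its fold change lay between 0.919 and 1.16. Isl1 followed with 0.02 ± 0.11 (-0.24 to 0.29), Foxf1 with 0.06 ± 0.13 (-0.24 to 0.36) and Hand1 with 0.10 ± 0.13 (-0.20 to 0.40). The hindlimb regulator Tbx4 had the widest interval, with a log2 fold change of -0.11 ± 0.32 (-0.84 to 0.63), or a fold change between 0.559 and 1.54. Hand2 had 0.15 ± 0.29 (-0.52 to 0.81), and Gata4 had the largest difference of the 9, with -0.29 ± 0.25 (-0.85 to 0.28). The log2 fold changes of Tbx2 and Gata6 were 0.04 ± 0.22 (-0.47 to 0.55) and -0.08 ± 0.18 (-0.50 to 0.34). Each of the 9 adjusted p-values was 0.999 (limma). Exact permutation tests of the 9 genes gave two-sided p-values between 0.5 and 0.9, where 3 against 3 embryos cannot give less than 0.1.

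**Figure D2:**
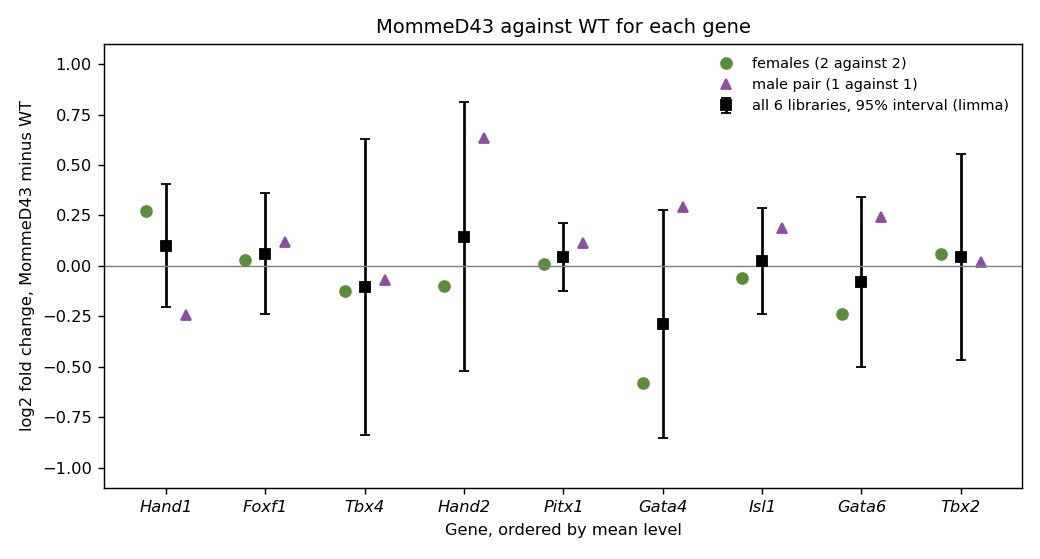
The log2 fold change of MommeD43 against WT for each gene, with squares and bars for the limma value and 95% interval over all 6 libraries, circles for the 4 females and triangles for the male pair. Every interval includes 0, the interval of Pitx1 is the narrowest, and the male pair and the females lie on opposite sides of 0 for Hand1, Hand2, Gata4, Isl1 and Gata6.

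The spread between embryos of 1 genotype was then examined. The median SD within groups was 0.254 (log2) over the 9 genes, and 0.141 over all autosomal genes tested. Tbx4 varied more over the 6 libraries than 89.3% of the genes tested, Hand2 more than 87.7% and Gata4 more than 84.5%. At the other end Pitx1 varied more than 18.9% of them and Isl1 more than 36.4%. Gata4 was uneven between genotypes, with an SD of 0.06 (log2) among the WT embryos and 0.56 among the MommeD43 embryos. Counting of reads alone gave an SD of 0.09 for this gene, above that of the WT embryos. With 3 embryos in each group the difference in spread was not tested.

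The spread was also set beside the sex labels. The comparison of the 2 males with the 4 females was added after the values had been seen, with genotype as a covariate in limma, and it cannot be told apart from mother or dissection. After adjustment none of the 9 genes and 0.00% of all genes tested were past 0.05. Without adjustment, 3 of the 9 genes had a p under 0.05, as had 8.06% of all genes tested. With either male left out the comparison rests on 1 male, so only effect sizes are given for those fits. Both males lay outside the range of the females for the same 3 genes, where this was so for 18.9% of all genes tested.

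Tbx4 was higher in the males, at 22.0 and 23.0 RPKM against 9.28 to 16.2 RPKM in the females, with a log2 difference of 0.81 ± 0.19 (SE, limma unadjusted p = 0.0037, adjusted p = 0.495). Hand2 was lower, at 7.49 and 11.6 RPKM against 14.8 to 17.4 RPKM, with -0.77 ± 0.16 (limma unadjusted p = 0.0015, adjusted p = 0.495). Foxf1 was also lower in the males, at 32.7 and 35.6 RPKM against 41.7 to 46.4 RPKM, with -0.35 ± 0.06 (limma unadjusted p = 0.00085, adjusted p = 0.495). The other 6 genes overlapped between the sexes. Their log2 differences, males minus females, were 0.44 for Gata4, 0.30 for Tbx2, 0.07 for Pitx1, 0.07 for Isl1, -0.20 for Gata6 and -0.22 for Hand1. For Hand2 the WT male stood at 7.49 RPKM and the MommeD43 male at 11.6 RPKM, and with 1 male of each genotype this difference has no replicate check. Without the WT male the log2 difference of Hand2 was -0.41, and without the MommeD43 male it was -1.14. Each of these values sets 1 male against the females of its own genotype.

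The sequences before the start sites of Tbx4 and Hand2 are shown because these genes differed most, and in opposite directions, between the male and the female libraries. They are the 250 bases before the RefSeq start, on the plus strand of GRCm38.p6, at chr11:85896515-85896764 for Tbx4 and at chr8:57320733-57320982 for Hand2. Capitals mark every match to the bHLH E-box CANNTG and to the GATA motif GATAA, searched on both strands.
Tbx4: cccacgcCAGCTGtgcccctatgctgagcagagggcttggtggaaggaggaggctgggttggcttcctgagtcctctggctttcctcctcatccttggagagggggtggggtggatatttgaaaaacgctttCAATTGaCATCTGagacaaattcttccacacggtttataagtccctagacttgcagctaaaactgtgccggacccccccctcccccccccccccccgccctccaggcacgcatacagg
Hand2: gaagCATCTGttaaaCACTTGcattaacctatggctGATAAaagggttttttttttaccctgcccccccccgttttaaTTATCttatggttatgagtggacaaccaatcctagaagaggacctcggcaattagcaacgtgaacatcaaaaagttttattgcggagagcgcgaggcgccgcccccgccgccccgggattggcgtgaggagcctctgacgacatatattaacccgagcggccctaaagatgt
The RefSeq start of Tbx4 lies 10343 bases inside the gene as the table gives it, so the window is before a start within the gene, and that of Hand2 is the same as in the table.

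Tbx4 had 3 E-boxes and 0 GATA motifs in this window, and Hand2 had 2 E-boxes and 2 GATA motifs. The E-box occurs in 66.2% and GATAA in 22.6% of the 32851 windows of this length in the RefSeq set. The T-box motif GGTGTGA (3.33% of windows) and the forkhead motif GTAAACA (3.17%) were found before neither gene, nor was the bicoid-type homeodomain motif TAATCC (6.25%). The GC content was 58.4% for Tbx4 and 49.2% for Hand2, with a median of 52.4% over all windows. Of the 9 genes 3 had an entry in the RefSeq set, and the other was Isl1, with 1 E-box, 1 GATAA and 1 TAATCC. Hand1, Foxf1, Tbx2, Pitx1, Gata4 and Gata6 had none.

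The design also allows the genotype effect in the male pair (1 against 1) to be set against that in the females (2 against 2), with 2 residual degrees of freedom. Each male is the only one of its genotype, so the SE rests on the females and on the variance of other genes. It holds no spread between males. None of the 9 genes passed an adjusted p of 0.05 for the difference (limma), where 0.272% of all genes tested did. The genes with an unadjusted p under 0.05 were 3 of the 9, namely Hand2, Hand1 and Gata4, against 10.8% of all genes tested. Hand2 was higher in the MommeD43 male than in the WT male by 0.64 (log2) and differed by -0.10 between the females, a difference of 0.74 ± 0.15 (SE, limma unadjusted p = 0.0018, adjusted p = 0.158). This call depended on the females. Without MommeD43 replicate 2 the difference for Hand2 was 0.67 (limma adjusted p = 0.0427), and without MommeD43 replicate 3 it was 0.80 (adjusted p = 0.038), in fits where the lone MommeD43 female is assumed to vary like the WT females and where 556 and 220 genes of all those tested passed. The adjusted p of this difference ran from 0.038 to 0.584 over the alternatives.

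Hand1 went the other way, with a log2 fold change of -0.24 between the males and 0.27 between the females (difference -0.51 ± 0.16, limma unadjusted p = 0.0143, adjusted p = 0.342). Gata4 had 0.29 between the males and -0.58 between the females (difference 0.87 ± 0.31, limma unadjusted p = 0.0292, adjusted p = 0.413). The other 6 genes had differences of -0.04 for Tbx2, 0.06 for Tbx4, 0.09 for Foxf1, 0.25 for Isl1, 0.10 for Pitx1 and 0.49 for Gata6. Their adjusted p-values were 0.621 or more (limma).

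Gata4 and Gata6 are also expressed in visceral endoderm, so the summed level of 11 yolk sac and visceral endoderm genes was set beside them. The sum was 151, 268 and 301 RPKM in WT replicates 1, 2 and 3, and 468, 55.5 and 41.6 RPKM in MommeD43 replicates 1, 2 and 3. All 11 genes had reads, 0 of them was at a mean under 0.1 RPKM, and 0 of them had an unadjusted p under 0.05 for genotype. In MommeD43 0 had the higher and 11 the lower mean of log2 RPKM, with a median log2 fold change of -1.04. The largest genotype differences were -1.85 ± 1.12 (log2, SE) for Apoa1 and -1.76 ± 1.12 for Apoa4, apolipoproteins of which the latter shares 69.8% of its exons with genes on the other strand. MommeD43 replicate 1 was the highest library and WT replicate 3 the next both for this sum and for Gata4, and MommeD43 replicates 2 and 3 were the lowest for both. The rest of the order differed. Gata4 was higher in WT replicate 1 than in WT replicate 2, and higher in MommeD43 replicate 3 than in MommeD43 replicate 2. The sum ran the other way in both pairs. Gata5, a relative that is also made in endoderm, was at 1.28 to 1.69 RPKM in WT. In MommeD43 replicates 1, 2 and 3 Gata5 was at 2.73, 0.86 and 1.21 RPKM. Here too MommeD43 replicate 1 was the highest and MommeD43 replicates 2 and 3 the lowest. Within WT, however, replicate 1 had the highest Gata5 level and the lowest sum. Gata5 was also higher in MommeD43 replicate 3 than in MommeD43 replicate 2, again unlike the sum. Gata6 had another order, with MommeD43 replicate 3 the lowest at 1.88 RPKM and MommeD43 replicate 2 the second highest at 2.61 RPKM. The part of yolk sac tissue in the level of Gata4 was not tested.

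**Figure D3:**
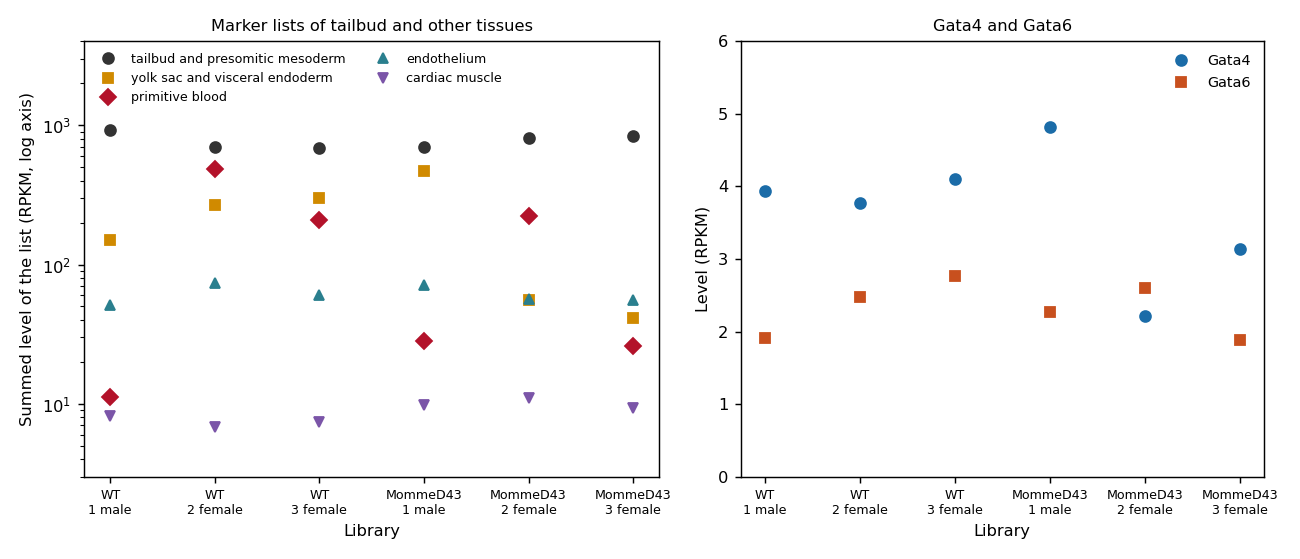
Left, summed level in RPKM (log axis) of marker lists of tailbud, yolk sac and visceral endoderm, primitive blood, endothelium and cardiac muscle in each of the 6 libraries; right, level of Gata4 and Gata6 in RPKM in the same libraries. The tailbud list stays between 687 and 930 RPKM, the yolk sac list runs from 41.6 to 468 RPKM and the blood list from 11.1 to 488 RPKM. Gata4 is highest where the yolk sac list is highest, but it is not lowest where that list is lowest.

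Other tissues that express members of this group were checked in the same way. The blood list of 9 genes summed to 11.1, 488 and 207 RPKM in WT and to 28.3, 222 and 26.0 RPKM in MommeD43, so the libraries with little blood RNA were both males and MommeD43 replicate 3. Over the 7 blood genes that passed the filter the median log2 difference between males and females was -2.48. Both males were below every female for 4 of the 7, where this was so for 10.4% of all genes tested. In MommeD43 replicate 3 Hand2 was 16.1 RPKM, among the other females, and Tbx4 was highest of the females. The part of blood in the levels of Hand2 and Tbx4 was not tested. The largest genotype differences on this list were -1.97 ± 1.53 (log2, SE) for the globin Hbb-y and -1.23 ± 0.96 for the erythroid factor Klf1.

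The cardiac muscle list of 15 genes was low, with a sum of 6.85 to 8.16 RPKM in WT and 9.29 to 11.05 RPKM in MommeD43. These sums did not overlap, but the sums of lists were not tested. Of the 15 genes 12 passed the filter, 9 higher and 3 lower in MommeD43 with a median log2 fold change of 0.29. Of these 12 genes 1 had groups without overlap. Tnnc1, a troponin of slow and cardiac muscle, was at 1.495, 0.895 and 1.503 RPKM in WT and at 2.98, 2.52 and 2.20 RPKM in MommeD43, without overlap, by 1.01 ± 0.23 (SE, limma unadjusted p = 0.0022, adjusted p = 0.999). It was the only gene of the list at an unadjusted p under 0.05, where 2.40% of all genes tested had such a p and 7.08% did not overlap. The defining cardiac genes Nkx2-5, Nppa and Ttn were among 4 genes of the list with a mean under 0.1 RPKM.

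Endothelial genes (10) summed to 50.9 to 73.6 RPKM in WT and 55.4 to 71.8 RPKM in MommeD43, and the receptor gene Tie1 differed by 0.48 ± 0.19 (log2, limma unadjusted p = 0.0351, adjusted p = 0.999), with overlap. On the tailbud list the segmentation clock gene Hes7 differed by 0.47 ± 0.20 (limma unadjusted p = 0.0441, adjusted p = 0.999), also with overlap. Tie1 was 1 of 10 tested genes of its list, and Hes7 1 of 14, at an unadjusted p under 0.05. Of all genes tested 2.40% had such a p. Trophoblast and decidua genes other than Hand1 (7) summed to 2.43 to 10.996 RPKM in WT and 6.14 to 23.9 RPKM in MommeD43, below the level of Hand1 in each library. The placental hormone gene Prl3d1 was at 14.3 RPKM in MommeD43 replicate 2 and at 1.94 RPKM or less in the other libraries, with 0 reads in WT replicate 2, and the granzyme gene Gzmg differed by 1.11 ± 0.89. Somite genes (12) summed to 5.31 to 6.50 RPKM in WT and 5.24 to 6.51 RPKM in MommeD43, with differences of 0.57 ± 0.39 for Pax9 and -0.27 ± 0.26 for Pax3. Hindgut and definitive endoderm genes (10) summed to 359 to 465 RPKM in WT and 442 to 483 RPKM in MommeD43, with 0.21 ± 0.12 for Krt18 and -0.16 ± 0.19 for Foxa2. The part of these tissues in the levels of the 9 genes was not tested.

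Other genes of the lateral plate and the limb fields were taken as a list of 22, of which 18 passed the filter. None had an unadjusted p under 0.05 for genotype, 5 had the higher mean and 13 the lower in MommeD43, and the median log2 fold change was -0.05. Msx1 and Msx2, homeobox targets of BMP signalling, were the most abundant, at 68.9 to 96.6 RPKM and 14.8 to 20.9 RPKM. The largest differences between genotypes were at genes close to the filter, with -0.76 ± 1.09 (SE, log2) for Mab21l2 and 0.75 ± 0.44 for Wt1, each below 1 RPKM in every library. Tbx5, the forelimb and heart relative of Tbx4, was at 0.10 RPKM or less in each library.

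Between males and females 7 of these 18 genes had an unadjusted p under 0.05, 6 lower and 1 higher in the males, against 8.06% of all genes tested, and 0 of the 18 passed adjustment. Both males were below every female for 5 of the 18, against 10.4% of all genes tested, and above every female for 1, against 8.48%. Osr1, a zinc finger factor of the lateral and intermediate mesoderm, was at 9.41 and 10.6 RPKM in the males and at 13.0 to 14.7 RPKM in the females, with a log2 difference of -0.47 (limma unadjusted p = 0.00082, adjusted p = 0.495). Tcf21, a bHLH factor of visceral mesoderm, was at 1.46 and 1.75 RPKM against 2.02 to 2.96 RPKM. Fgf10, the limb bud growth factor, was at 2.46 and 3.15 RPKM against 3.35 to 3.81 RPKM. Mab21l2 was also lower in both males, and Gata5 was the gene with the higher males. These genes were named after their values had been seen. The median log2 difference between males and females was -0.19 over the 18 genes, and -0.01 over all genes tested.

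Of 14 genes taken for the allantois and extraembryonic mesoderm, 12 passed the filter as autosomal genes. In MommeD43 8 had the higher and 4 the lower mean, with a median log2 fold change of 0.03. Pmp22, a membrane protein gene expressed in mesenchyme, had an unadjusted p under 0.05, at 28.2, 42.4 and 34.2 RPKM in WT and 40.7, 45.8 and 45.6 RPKM in MommeD43, with a log2 fold change of 0.35 ± 0.13 (limma unadjusted p = 0.0293, adjusted p = 0.999). Its groups overlapped, and it was 1 of the 12 with such a p, against 2.40% of all genes tested. The 1 gene without overlap, against 7.08% of all genes tested, was Wnt2. It was at 0.59 to 0.77 RPKM in WT and 0.81 to 1.32 RPKM in MommeD43. Between males and females 1 of the 12 genes was higher in the males at an unadjusted p under 0.05 and 3 were lower. The share over all genes tested was 8.06%, and 0 of the 12 passed adjustment. The lower genes were Itga4, Ahnak and Pmp22, by -0.57, -0.64 and -0.30 (log2). Both males were above every female for 1 of the 12, against 8.48% of all genes tested, and below every female for 2, against 10.4%. The gene with the higher males was Hoxa11, at 2.95 and 3.87 RPKM against 1.63 to 2.77 RPKM in the females. The antisense gene Hoxa11os covers 35.0% of its exons, and use of strand in the counting is not given in the sources used here. Itga4, the integrin that binds VCAM1 in fusion of the allantois with the chorion, was at 0.88 and 1.11 RPKM in the males and 1.26 to 1.76 RPKM in the females. Vcam1, the partner on the allantois, was at 0.01 to 0.13 RPKM.

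**Figure D4:**
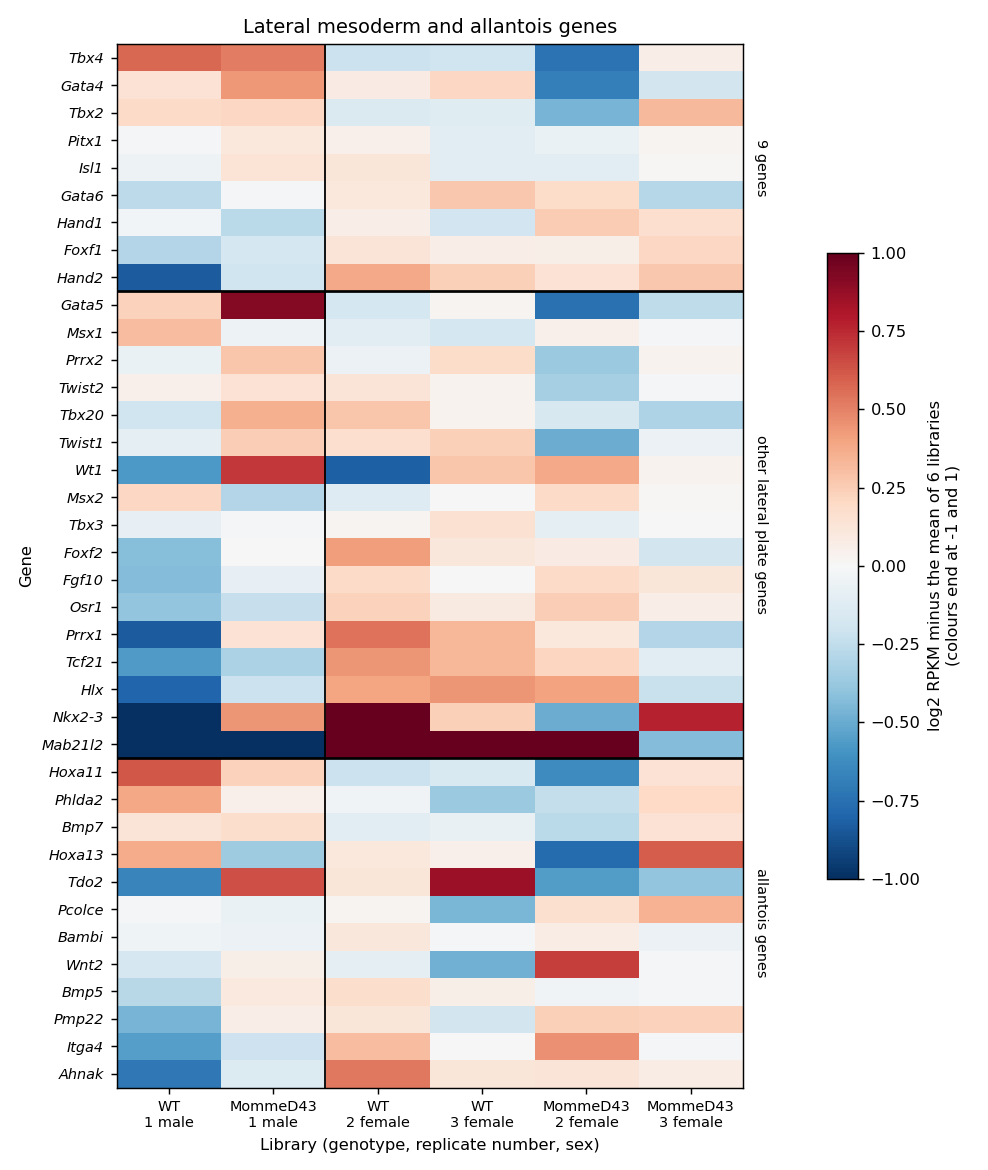
Level of each gene (log2 RPKM minus its mean over the 6 libraries) for the 9 genes, other lateral plate genes that passed the filter, and the allantois genes that passed it, with the males in the first columns and the females in the rest. Within each block genes are ordered by the difference between males and females, so that Tbx4 stands at the top and Hand2 at the foot of the 9 genes, and Gata5 and Mab21l2 at the ends of the lateral plate genes.

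The inputs to these genes were taken as 20 genes of the BMP and Hedgehog pathways, all of which passed the filter, with 8 higher and 12 lower in MommeD43 and a median of -0.02. Bmp4, the ligand that patterns the lateral plate and is needed for the allantois, was at 26.4 to 28.3 RPKM in WT and 28.8 to 32.9 RPKM in MommeD43, without overlap, by 0.17 ± 0.06 (log2, SE, limma unadjusted p = 0.0316, adjusted p = 0.999). Gli2, a transcription factor at the end of the Hedgehog pathway, was at 5.83 to 6.09 RPKM in WT and 5.07 to 5.37 RPKM in MommeD43, also without overlap, by -0.19 ± 0.08 (limma unadjusted p = 0.0410, adjusted p = 0.999). These were the 2 of the 20 genes at an unadjusted p under 0.05, where 2.40% of all genes tested had such a p, and the 2 without overlap, where 7.08% of all genes had none. The BMP targets Id1 and Id3 were at 83.3 to 96.9 RPKM and 84.0 to 96.7 RPKM, and Id2 ranged more widely, from 28.3 to 44.2 RPKM, with overlap between the genotypes. Of the receptors and transducers, Bmpr1a was at 26.8 to 32.4 RPKM, Smad4 at 43.9 to 47.1 RPKM and Smo, the Hedgehog transducer, at 41.0 to 43.2 RPKM.

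Partners of the 9 factors were present as well. All 10 genes on that list passed the filter, 7 higher and 3 lower in MommeD43 with 0 at an unadjusted p under 0.05, and a median of 0.01. Tcf3, which encodes E-proteins that pair with HAND factors, was at 73.0 to 81.9 RPKM, and Ldb1, which binds the LIM domains of ISL1, at 39.8 to 46.5 RPKM. Of the GATA cofactors Zfpm1 was at 5.21 to 7.82 RPKM, whereas Zfpm2, the cofactor of GATA4 in the heart, was at 0.06 to 0.11 RPKM. The largest differences on this list were 0.45 ± 0.55 for Lhx1 and 0.19 ± 0.21 for Smarcd3. Of 14 relatives of the 9 genes, 6 passed the filter, 3 higher and 3 lower with a median of -0.01, and the largest differences were 0.88 ± 0.40 for Isl2, at 0.14 to 0.54 RPKM, and -0.12 ± 0.08 for Mga.

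Of the non-coding genes that start within 5000 bases of a member, a rule set after the values were seen, 2 had enough reads to be tested. Fendrr, a lateral mesoderm RNA, starts 1276 bases before Foxf1 on the other strand. Its level was 6.91, 6.73 and 7.84 RPKM in WT and 7.22, 8.27 and 7.84 RPKM in MommeD43, with overlap and a log2 fold change of 0.12 ± 0.09 (SE, limma adjusted p = 0.999). Between males and females Fendrr differed by -0.11 (log2) and Foxf1 by -0.35. Hand2os1 runs across Hand2 on the other strand and covers 19.6% of the exons of Hand2. It was at 0.198, 0.501 and 0.408 RPKM in WT and at 0.391, 0.342 and 0.309 RPKM in MommeD43. The WT male was the lowest for both Hand2os1 and Hand2, and as use of strand is not given in the sources used here, the reads of the pair may not be fully separate. The other 3 such genes, beside Tbx2, Pitx1 and Gata6, had 13 reads or fewer in each library.

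Genes with patterns most like those of the 9 genes were found by Pearson's r of log2 RPKM over the 6 libraries, among 10672 autosomal genes at a mean of 1 RPKM or more. The 6 points share libraries and depth with the genes they are compared with. The values given are the highest among 10672 genes, and with 6 points some high values arise for any pattern. For these reasons r is given as a description. The mean of the 9 genes was matched best by Rida (r = 0.980), Prim1 (0.979) and Trmt5 (0.973). For single genes the closest were Gak for Tbx4 (0.991), Krt19 for Hand2 (0.995), Sgo1 for Foxf1 (0.995) and Grhl3 for Hand1 (0.996). Ctsc was closest to Gata4 (0.986), Cbfb to Gata6 (0.995), Ydjc to Tbx2 (0.984), Mogs to Pitx1 (0.991) and Gm32856 to Isl1 (0.963). None of these genes was on the lists of lateral plate or allantois genes.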

How the data were processed

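RNA from 6 single-embryo tailbuds (3 WT, 3 MommeD43) was sequenced from stranded, poly(A)-selected libraries. The authors trimmed reads, mapped them with HISAT2 2.0.5 to GRCm38.p6 and quantified genes in SeqMonk, and the deposited values are log2 RPKM. Groups, sexes and mothers came from the labels.

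RPKM was taken back from the log2 values. Reads were recovered with merged exon lengths of GENCODE M21, and all 54 values of the 9 genes were within 0.05 of whole reads, as were 98.3% of 76960 values of all genes within 0.02. Genes needed at least 3 libraries at the CPM of 10 reads in the library of median size, and 15 reads in all. The 13617 autosomal genes were fitted with limma 3.58.1 (R 4.3.3) on log2 RPKM without a pseudocount, with a mean-variance trend, two-sided, and Benjamini-Hochberg adjustment. On simulated data with 200 genes changed 2-fold among 13617, limma recovered 88.5% with 7 false calls. Each simulated gene had the same SD between embryos, 0.141 (log2), the median over all genes tested. The 9 genes had a median SD of 0.254, so the 88.5% is not a rate for them. No pair of libraries was within sampling noise, with a mean chi-square per gene of 4.55 to 26.7 where noise gives about 1.

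The members, lists, tests and alternatives were chosen with earlier results of these data known. The naming rule took the 9 genes, from each list genes at an unadjusted p under 0.05 (at most 4) or else the 2 with the largest change, and for likeness the 3 genes closest to the mean and the closest to each gene. Genes outside it were named for their role or, between males and females, after their values had been seen. The comparison of males with females and the window for neighbours were added after seeing the data. P-values measure the spread between embryos. For the male pair against the females this is the spread of the females alone, since each genotype had 1 male. Alternatives were scaling, filters, pseudocounts, sex as a covariate, a replicate block, females alone, voom and each library left out. The values of 1 gene of the lateral plate list are not reported here.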

Additional observations from a re-analysis of the deposited data

How the results depend on the processing

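For MommeD43 against WT, 0 of the 9 genes passed an adjusted p of 0.05 under every alternative run, and no gene among all autosomal genes did except with females alone, where 10 of 13617 passed (1188 at an unadjusted p under 0.05, limma). Without adjustment the number of the 9 genes with a p under 0.05 was 0, with these exceptions. With females alone it was 2, without MommeD43 replicate 1 it was 2 (500 of all genes) and with voom 1 (425 of all genes). For males against females it was 3 with all libraries. With a female library left out it was 3 or 4, where 618 to 1787 of all genes had such a p. Signs of small differences changed. With voom on recovered reads Tbx2 was -0.20, Isl1 -0.030 and Gata6 0.063 (log2 fold change), and with females alone Hand2 was -0.10 and Isl1 -0.059. With each library left out in turn the genotype values ran from -0.11 to 0.29 for Tbx2, -0.39 to 0.24 for Tbx4, -0.071 to 0.16 for Foxf1, -0.0021 to 0.26 for Hand1, -0.24 to 0.37 for Hand2, -0.040 to 0.088 for Isl1 and -0.23 to 0.045 for Gata6, and those of Pitx1 (0.00 to 0.09) and Gata4 (-0.58 to -0.02) kept their sign. For the male pair against the females, leaving out a female library gave 0 to 1 of the 9 genes, with Hand2 passing without MommeD43 replicate 2 or 3, and ranges of -0.44 to 0.35 for Tbx2 and -0.34 to 0.46 for Tbx4. In the comparison of males with females some of these fits kept 1 male only. Over all of them the ranges were -0.48 to 0.033 for Hand1, -0.058 to 0.19 for Isl1 and -0.45 to 0.038 for Gata6. Tbx4 (0.64 to 0.98), Hand2 (-1.14 to -0.41) and Foxf1 (-0.40 to -0.31) kept their sign. The cause of these changes was not tested. With the replicate block 0 of the 9 genes and 0 genes in all passed (307 at an unadjusted p under 0.05), and the residuals of same-numbered libraries correlated at r of -0.03, 0.17 and -0.17. By the labels the libraries numbered 1 share a mother and those numbered 2 or 3 do not, so the block was not taken as a pairing. The design leaves 2 males with 1 mother, and no fit separates sex from mother.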
